A study of Rattus norvegicus with 12 samples.

Results

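Notch signalling genes were described in cultured rat neural stem cells (NSCs) that had been left proliferative or had been differentiated. The genes were 3 receptors (Notch1, Notch2 and Notch3), 3 ligands (Dll1, Dll3 and Jag1) and 4 target genes of the pathway (Hes1, Hes5, Hey1 and Hey2). All probe sets to which the platform annotation gives exactly 1 of these symbols were taken, which gave 12 of the 31099 probe sets on the Affymetrix Rat230_2 array and 10 of the 14217 genes named in this way. Short probes that together read 1 transcript make up a probe set. Notch1 and Hes5 had 2 probe sets each and the other 8 genes had 1.

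The 4 groups of 3 arrays were: differentiated brain NSCs, proliferative brain NSCs, differentiated spinal cord NSCs and proliferative spinal cord NSCs. All cells came from Sprague Dawley rats at postnatal day 3 to 5, and the labels name no mutation, transgene or agent in any group. The sample titles mark differentiated cultures with "fenhua", which is Chinese for differentiation, and the medium and duration of differentiation are not given in the sources used here. No label states that the 3 arrays of a group are separate cultures or litters, so every p-value below measures the spread between arrays, which may be technical. The arrays measured bulk RNA, in which fewer cells of a type and less RNA per cell cannot be told apart.

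Notch receptors are bound by Delta and Jagged ligands on neighbouring cells, and are then cut by ADAM proteases and by gamma-secretase. The freed intracellular part joins the DNA-binding protein RBPJ and Mastermind-like coactivators and switches on Hes and Hey genes, which encode repressors of the basic helix-loop-helix (bHLH) class. In neural tissue the pathway is known for holding progenitors undifferentiated, for keeping neighbouring cells from becoming neurons together, and for favouring glial fates.

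RBPJ is known to bind DNA at the core letters TGGGAA, often preceded by G. In RefSeq promoters of the GRCr8 assembly (250 bases before to 50 bases after the gene's start), 9 of the 10 genes had an entry. TGGGAA, read on either strand so that TTCCCA also counts, occurred in 5 of these 9, and in 25.7% of all 33469 promoters in the table. The 7-letter form GTGGGAA or TTCCCAC, which contains the shorter one, occurred in 4 of the 9, and in 6.29% of all promoters. The 4 promoters that hold the longer form are shown because their genes include a ligand and 3 targets whose signals are compared below. They lie at chr1:64993225-64993524 on the minus strand (Dll1), chr11:84212996-84213295 on the minus strand (Hes1), chr5:170804327-170804626 on the plus strand (Hes5) and chr1:28640850-28641149 on the plus strand (Hey2). Each is printed 5′ to 3′ along its gene, with TGGGAA and TTCCCA in capitals.
Dll1: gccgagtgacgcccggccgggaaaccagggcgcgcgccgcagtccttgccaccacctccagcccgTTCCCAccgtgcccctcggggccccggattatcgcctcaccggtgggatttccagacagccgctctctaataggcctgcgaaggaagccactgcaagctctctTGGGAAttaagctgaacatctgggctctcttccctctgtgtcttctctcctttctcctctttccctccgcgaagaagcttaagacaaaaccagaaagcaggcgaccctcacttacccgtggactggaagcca
Hes1: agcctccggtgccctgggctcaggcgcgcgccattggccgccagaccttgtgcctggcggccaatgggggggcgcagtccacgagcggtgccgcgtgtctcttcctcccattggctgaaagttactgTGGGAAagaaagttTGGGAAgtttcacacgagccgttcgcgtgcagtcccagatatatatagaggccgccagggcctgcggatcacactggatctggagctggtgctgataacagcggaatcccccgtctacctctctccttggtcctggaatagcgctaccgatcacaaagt
Hes5: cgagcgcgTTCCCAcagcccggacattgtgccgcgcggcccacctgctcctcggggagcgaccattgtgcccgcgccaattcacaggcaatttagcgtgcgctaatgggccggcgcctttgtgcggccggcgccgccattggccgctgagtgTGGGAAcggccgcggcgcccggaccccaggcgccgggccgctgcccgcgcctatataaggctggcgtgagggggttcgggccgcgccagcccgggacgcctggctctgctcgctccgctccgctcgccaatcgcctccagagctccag
Hey2: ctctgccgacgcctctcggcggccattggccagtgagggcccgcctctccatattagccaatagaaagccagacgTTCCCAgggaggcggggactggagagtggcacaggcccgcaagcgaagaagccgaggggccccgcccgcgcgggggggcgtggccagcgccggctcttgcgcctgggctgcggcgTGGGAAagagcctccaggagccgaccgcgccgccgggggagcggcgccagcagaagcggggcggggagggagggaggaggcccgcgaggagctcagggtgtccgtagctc
Each of these 4 promoters held 2 matches. In Hes1 both read in the same direction, with 8 bases between them, and they began 123 and 109 bases before the start. In Hes5 the matches ran in opposite directions 242 and 98 bases before the start, with 138 bases between them. Hey2 had them 175 and 60 bases before the start with 109 bases between, and Dll1 185 and 82 bases before the start with 97 bases between. A match of letters describes the window and is no measured binding site.

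Values below are log2 MAS5 signals, so that a difference of 1 is a 2-fold change in signal, and each group is given as mean ± SD with n = 3. Array medians were 6.88 to 7.23, and the correlation over probe sets was 0.930 to 0.948 within groups and 0.845 to 0.909 between groups. The 3' minus 5' signal was -0.13 to 0.13 for Gapdh overall. For Actb it was 0.99 to 1.01 in differentiated and 0.69 to 0.99 in proliferative spinal cord, and 0.73 to 0.81 in differentiated and 0.77 to 0.84 in proliferative brain. This sign of RNA quality was thus high in differentiated spinal cord, where Notch1, Dll1, Hey1 and Hey2 were lowest, and its part in their values was not tested. Each array's own 40th percentile, 5.91 to 6.41, served as the lower bound of measurable signal: a group whose 3 arrays all lay under it is called dim, and a fold against it is given as "at least". The tests are limma's, with p-values adjusted by Benjamini-Hochberg over the 20834 probe sets tested, and a change is called at an adjusted p under 0.05. Of the Notch probe sets, 10 were tested, which covered 9 genes. Dll3 and the second Hes5 probe set were above the bound on fewer than 3 arrays and were left out of the test. Notch2, Notch3 and Hes5 had arrays above the bound in 1 group only and entered the test through it. A difference between that group and the others was built into their entry, so their tests are given as descriptions.

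Notch1, the main Notch receptor of neural progenitors, moved in opposite directions in the 2 tissues. It was 1.97-fold higher in differentiated than in proliferative brain cultures and 2.52-fold lower in differentiated than in proliferative spinal cord cultures. Its probe set 1371491_at gave 11.08, 11.01 and 11.10 on differentiated brain arrays (mean 11.06 ± 0.05), against 9.94, 10.08 and 10.23 on proliferative brain arrays (10.08 ± 0.15). It gave 9.11, 9.30 and 9.07 on differentiated spinal cord arrays (9.16 ± 0.12), against 10.19, 10.62 and 10.66 on proliferative ones (10.49 ± 0.26). The groups overlapped in neither tissue. The log2 change was 0.98 in brain (SE 0.13, adjusted p = 3.8e-05) and -1.33 in spinal cord (adjusted p = 3.3e-06). The second Notch1 probe set, 1390426_at, gave 9.93, 10.33 and 10.44 in differentiated brain against 8.71, 9.12 and 9.06 in proliferative brain. In spinal cord it gave 7.72, 7.82 and 8.31 in differentiated cultures against 9.25, 9.34 and 9.34 in proliferative ones. Its log2 changes of 1.27 in brain (adjusted p = 5.5e-05) and -1.36 in spinal cord (adjusted p = 3.9e-05) had the same directions as those of the first.

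**Figure D1:**
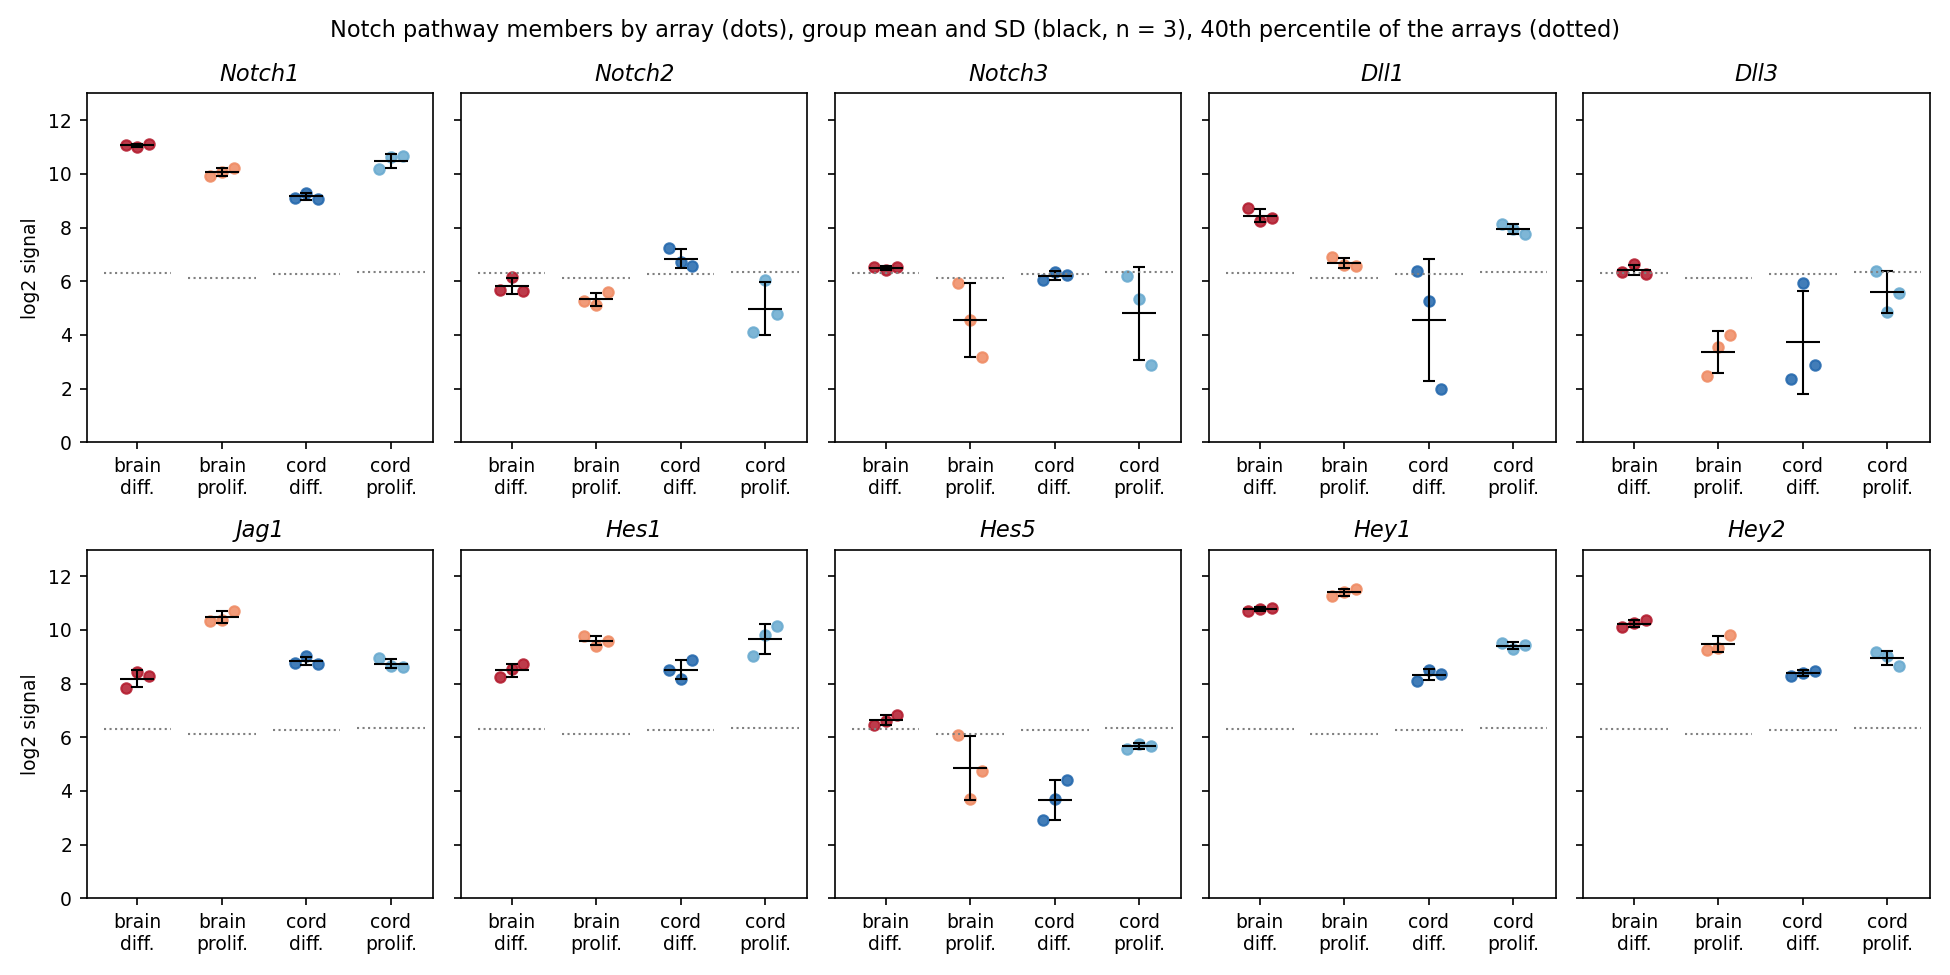
Log2 signal of the 10 Notch pathway genes on each array (dots), with group mean and SD in black (n = 3) and the group's mean 40th percentile as a dotted line; for Notch1 and Hes5 the brighter probe set is drawn. Notch1 lies highest on differentiated brain arrays (11.01 to 11.10) and lowest on differentiated spinal cord arrays (9.07 to 9.30).

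The 2 states ordered the tissues differently for Notch1. In differentiated cultures the spinal cord was 3.74-fold lower than the brain (log2 difference -1.90, adjusted p = 7.2e-08) by 1371491_at and 4.88-fold lower by 1390426_at (-2.29, adjusted p = 2.2e-07), with no overlap. In proliferative cultures the spinal cord was 1.33-fold higher by 1371491_at (0.41, adjusted p = 0.023), but the arrays of the 2 groups overlapped, and 1390426_at did not pass (0.35, adjusted p = 0.14). That call also ended when arrays were centred on their medians (0.20, adjusted p = 0.30).

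Notch2 and Notch3, the other receptors, were near or under the lower bound. Notch2 (1387480_at) gave 7.24, 6.72 and 6.57 in differentiated spinal cord against 4.09, 6.04 and 4.77 in proliferative spinal cord, which was dim. The signal was at least 1.40-fold higher in the differentiated cultures (adjusted p = 0.0062), and those 3 arrays are the ones through which Notch2 entered the test. In brain both groups were dim, at 5.82 ± 0.31 in differentiated and 5.33 ± 0.25 in proliferative cultures. Notch3 (1369329_at) gave 6.53, 6.43 and 6.54 in differentiated brain against 5.94, 4.56 and 3.18 in proliferative brain, which was dim. The Notch3 groups did not overlap, but the change did not pass the test (log2 change 1.94, adjusted p = 0.057). In spinal cord both Notch3 groups were dim, at 6.21 ± 0.17 in differentiated and 4.81 ± 1.73 in proliferative cultures.

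The ligand Dll1, a Delta protein presented to neighbouring cells, was higher in differentiated brain and lower in differentiated spinal cord, and only the spinal cord change passed. Its probe set 1368938_at gave 8.71, 8.23 and 8.38 in differentiated brain (8.44 ± 0.25) against 6.89, 6.62 and 6.56 in proliferative brain (6.69 ± 0.18). It gave 6.38, 5.25 and 1.99 in differentiated spinal cord (4.54 ± 2.28) against 8.13, 7.94 and 7.78 in proliferative spinal cord (7.95 ± 0.18). The array at 1.99, differentiated spinal cord replicate 3, stood far from its group, and 2 of those 3 arrays were under the lower bound. In spinal cord the log2 change was -3.40 (adjusted p = 0.0026), a 10.6-fold lower signal that became 4.38-fold without that array and 20.1-fold without replicate 1. With values under the lower bound raised to it, the spinal cord change was -1.59, or 3.00-fold (adjusted p = 5.7e-06). In brain the groups were apart by 1.75, or 3.37-fold, and the adjusted p was 0.071 with the spread shared by all 4 groups. It was 8.0e-05 when only the 2 brain groups were fitted and 0.00022 without differentiated spinal cord replicate 3, an array of the other tissue. Between differentiated cultures, spinal cord was 14.9-fold under brain (-3.90, adjusted p = 0.00087), a value of 6.16-fold without replicate 3 and 28.2-fold without replicate 1 of the differentiated spinal cord group, and of 4.22-fold with values raised to the lower bound. Between proliferative cultures the difference of 1.26 did not pass (adjusted p = 0.21), although the groups did not overlap, and passed without differentiated spinal cord replicate 3 (adjusted p = 0.0033).

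Dll3, a divergent Delta protein known from mouse to act inside the cell that makes it, was near or under the lower bound in every group. Its probe set 1370263_at gave 6.34, 6.65 and 6.28 in differentiated brain, 2 of the 3 arrays above the lower bound, against 2.48, 3.55 and 4.01 in proliferative brain. It gave 2.35, 5.93 and 2.89 in differentiated spinal cord against 6.40, 4.84 and 5.56 in proliferative spinal cord. Outside differentiated brain all 3 groups were dim, but the proliferative spinal cord arrays overlapped those of differentiated brain. When no probe set was filtered out, the brain difference was 3.07 (adjusted p = 0.0102), which given the lower bound means at least 1.24-fold, and the spinal cord difference did not pass (-1.88, adjusted p = 0.12).

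Jag1, the Jagged ligand in the set, fell in brain cultures and showed no detectable change in spinal cord cultures. Its probe set 1368725_at gave 7.82, 8.45 and 8.30 in differentiated brain (8.19 ± 0.33), against 10.34, 10.37 and 10.72 in proliferative brain (10.48 ± 0.21). It gave 8.78, 9.02 and 8.71 in differentiated spinal cord (8.84 ± 0.16), against 8.95, 8.66 and 8.63 in proliferative spinal cord (8.75 ± 0.18). In brain the groups were well apart, a 4.89-fold lower signal (log2 change -2.29, adjusted p = 2.7e-07), and in spinal cord they overlapped (0.09, 95% interval -0.28 to 0.47, adjusted p = 0.72). Proliferative spinal cord lay 3.32-fold under proliferative brain (adjusted p = 4.8e-06), and differentiated spinal cord 1.57-fold over differentiated brain (adjusted p = 0.0083).

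Among the target genes, Hes1, a repressor of proneural genes, fell by similar amounts in both tissues. Its probe set 1387036_at gave 8.23, 8.55 and 8.71 in differentiated brain against 9.76, 9.42 and 9.60 in proliferative brain. It gave 8.50, 8.19 and 8.87 in differentiated spinal cord against 9.03, 9.82 and 10.14 in proliferative spinal cord. Neither tissue's groups overlapped. The log2 changes were -1.09 in brain (2.14-fold lower, adjusted p = 0.0027) and -1.14 in spinal cord (2.21-fold lower, adjusted p = 0.0025). Their difference was -0.05 with a 95% interval of -0.81 to 0.72, and spinal cord minus brain was 0.02 in differentiated cultures (-0.52 to 0.56) and 0.07 in proliferative ones (-0.47 to 0.61).

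Hes5, the other Hes repressor and a commonly used readout of Notch activity in neural progenitors, was just above the lower bound in differentiated brain and under it elsewhere. Its probe set 1368942_at gave 6.47, 6.61 and 6.83 in differentiated brain against 6.08, 3.72 and 4.74 in proliferative brain. It gave 2.92, 3.69 and 4.41 in differentiated spinal cord against 5.55, 5.77 and 5.66 in proliferative spinal cord. Only the differentiated brain arrays were above the bound, and Hes5 entered the test through them. Differentiated brain was at least 1.44-fold higher than proliferative brain (log2 change 1.79, adjusted p = 0.027), and leaving out any 1 of 5 of the 6 brain arrays ended that call (adjusted p = 0.057 to 0.113). The spinal cord change of -1.98 (adjusted p = 0.019) lay between 2 dim groups, so no fold is given, and it was -0.10 (adjusted p = 0.65) with values raised to the bound. Leaving out differentiated spinal cord replicate 1 (adjusted p = 0.0655) or proliferative spinal cord replicate 2 (adjusted p = 0.0535) also ended it. Differentiated spinal cord was at least 1.30-fold under differentiated brain (-2.96, adjusted p = 0.0015), which did not pass with values raised to the bound (adjusted p = 0.056). The second Hes5 probe set, 1375713_at, ranged from 2.43 to 6.87 in differentiated brain and from 2.98 to 5.69 in proliferative brain, and did not separate those groups. It gave 4.93, 3.51 and 4.57 in differentiated spinal cord against 4.40, 6.31 and 3.92 in proliferative spinal cord.

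Hey1, a bHLH repressor related to the Hes proteins, fell in both tissues and was lower in spinal cord than in brain in either state. Its probe set 1386080_at gave 10.72, 10.79 and 10.83 in differentiated brain (10.78 ± 0.06) against 11.26, 11.41 and 11.52 in proliferative brain (11.40 ± 0.13). It gave 8.11, 8.52 and 8.34 in differentiated spinal cord (8.33 ± 0.21) against 9.53, 9.28 and 9.44 in proliferative spinal cord (9.42 ± 0.13). No group overlapped another. Hey1 fell 1.54-fold in brain (log2 change -0.62, adjusted p = 0.00086) and 2.13-fold in spinal cord (-1.09, adjusted p = 9.7e-06). Spinal cord lay 5.48-fold under brain in differentiated cultures (-2.45, adjusted p = 3.2e-09) and 3.95-fold under it in proliferative cultures (-1.98, adjusted p = 4.9e-08).

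Hey2, the sister gene of Hey1, changed in opposite directions, as Notch1 did. Its probe set 1384515_at gave 10.11, 10.26 and 10.35 in differentiated brain (10.24 ± 0.12) against 9.25, 9.34 and 9.81 in proliferative brain (9.47 ± 0.30). It gave 8.30, 8.40 and 8.49 in differentiated spinal cord (8.39 ± 0.10) against 9.20, 9.01 and 8.67 in proliferative spinal cord (8.96 ± 0.27). The groups overlapped in neither tissue. Hey2 rose 1.71-fold in brain (log2 change 0.78, adjusted p = 0.0017) and fell 1.48-fold in spinal cord (-0.57, adjusted p = 0.014). The spinal cord call ended without differentiated spinal cord replicate 1 (adjusted p = 0.054) and with median centring (-0.49, adjusted p = 0.053). Spinal cord was 3.60-fold under brain in differentiated cultures (-1.85, adjusted p = 9.2e-07). In proliferative cultures it was 1.42-fold under brain (-0.51, adjusted p = 0.027), a call that ended without proliferative brain replicate 3 or without proliferative spinal cord replicate 3.

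**Figure D2:**
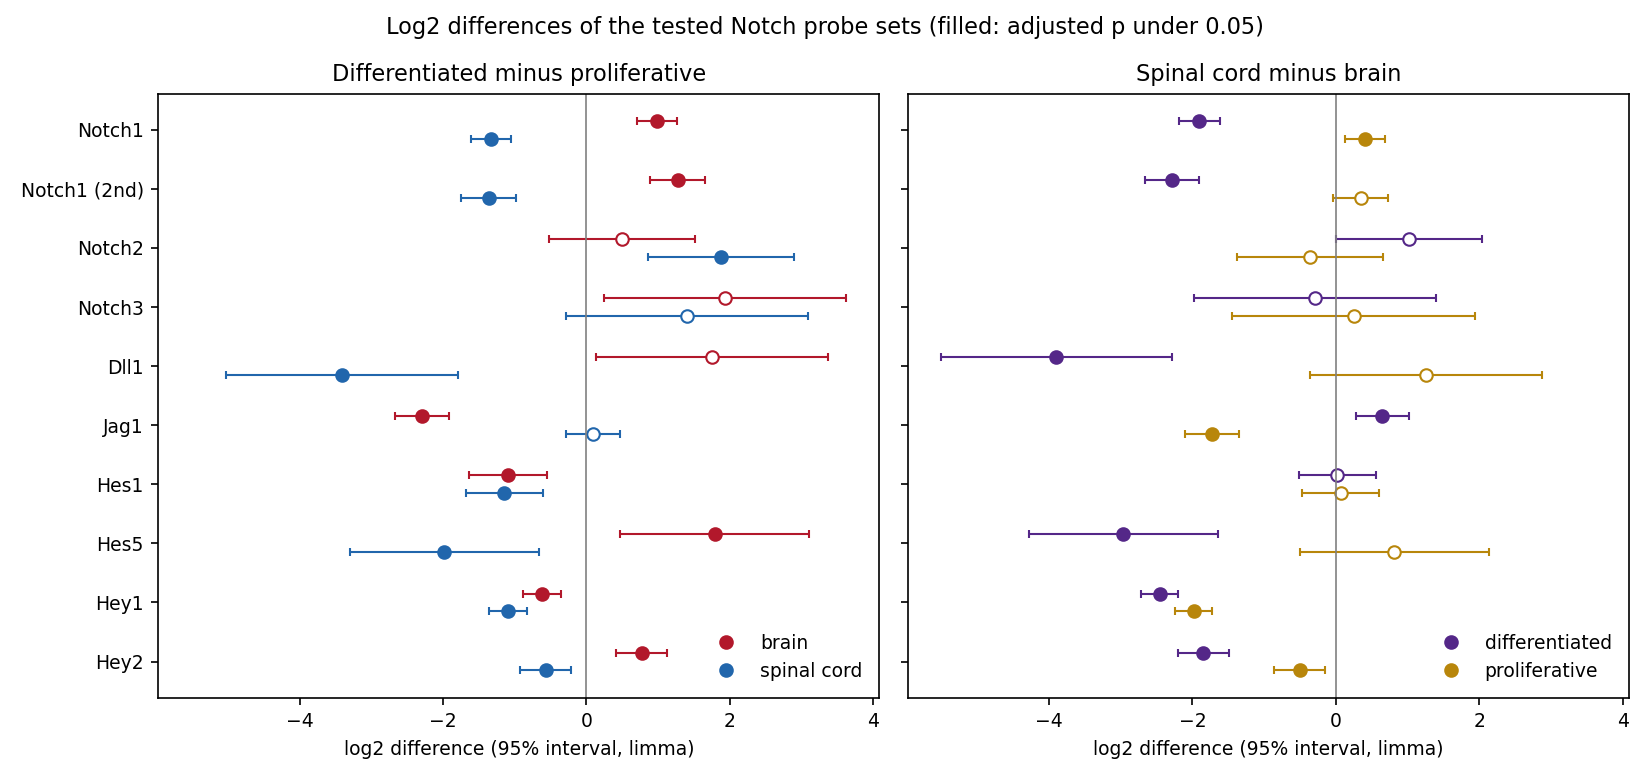
Log2 differences of the 10 tested Notch probe sets with 95% intervals from limma, differentiated minus proliferative on the left and spinal cord minus brain on the right; filled points have an adjusted p under 0.05. Notch1 and Hey2 have filled points on both sides of 0 in the left panel, and Hes1 and Hey1 lie left of 0 in both tissues.

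The order of the 4 groups differed from gene to gene. Notch1 and Hey2 were highest in differentiated brain and lowest in differentiated spinal cord. For Notch1 the 2 proliferative groups between them overlapped by 1371491_at but not by 1390426_at, and for Hey2 proliferative brain stood over proliferative spinal cord without overlap. Dll1 was also highest in differentiated brain, followed by proliferative spinal cord, proliferative brain and differentiated spinal cord, with no overlap between neighbours. Hey1 descended from proliferative brain through differentiated brain and proliferative spinal cord to differentiated spinal cord. Jag1 was highest in proliferative brain and lowest in differentiated brain, with the overlapping spinal cord groups between. For Hes1 the 2 proliferative groups overlapped and stood over the 2 differentiated groups, which overlapped too.

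Counts by gene use the brighter probe set and leave out Notch2, Notch3 and Hes5, which entered the test through 1 group. Of the other 6 tested genes, brain differentiation raised 2 (Notch1 and Hey2), lowered 3 (Jag1, Hes1 and Hey1) and left Dll1 not called. In all 20834 tested probe sets 23.7% were called up and 23.1% down in that comparison. Spinal cord differentiation raised 0, lowered 5 (Notch1, Dll1, Hes1, Hey1 and Hey2) and left Jag1 not called, against 18.3% of all tested probe sets called up and 22.0% down. The median log2 change of the 6 genes was 0.08 in brain and -1.12 in spinal cord, against 0.00 and -0.05 over all tested probe sets. Between differentiated cultures, Jag1 was higher in spinal cord than in brain and 4 genes (Notch1, Dll1, Hey1 and Hey2) were lower, against 18.5% and 22.9% of all tested probe sets. Between proliferative cultures, Notch1 was higher in spinal cord and 3 genes (Jag1, Hey1 and Hey2) were lower, against 19.4% and 18.5%. Of all calls, the share of rises was 50.6% for brain differentiation and 51.2% between proliferative cultures, and became 38.2% and 31.7% when arrays were centred on their medians. With Notch2, Notch3 and Hes5 counted too, the calls were 3 up and 3 down of 9 genes in brain, and 1 up and 6 down in spinal cord.

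Notch1 and Hey2 were called up in brain and down in spinal cord, a combination that 5.41% of all tested probe sets showed. Hes5 had calls of the same signs, but entered the test through differentiated brain, and its spinal cord groups were both dim. Hes1 and Hey1 were called down in both tissues, as were 7.04% of all tested probe sets. The brain and spinal cord differentiation comparisons have no array in common.

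**Figure D3:**
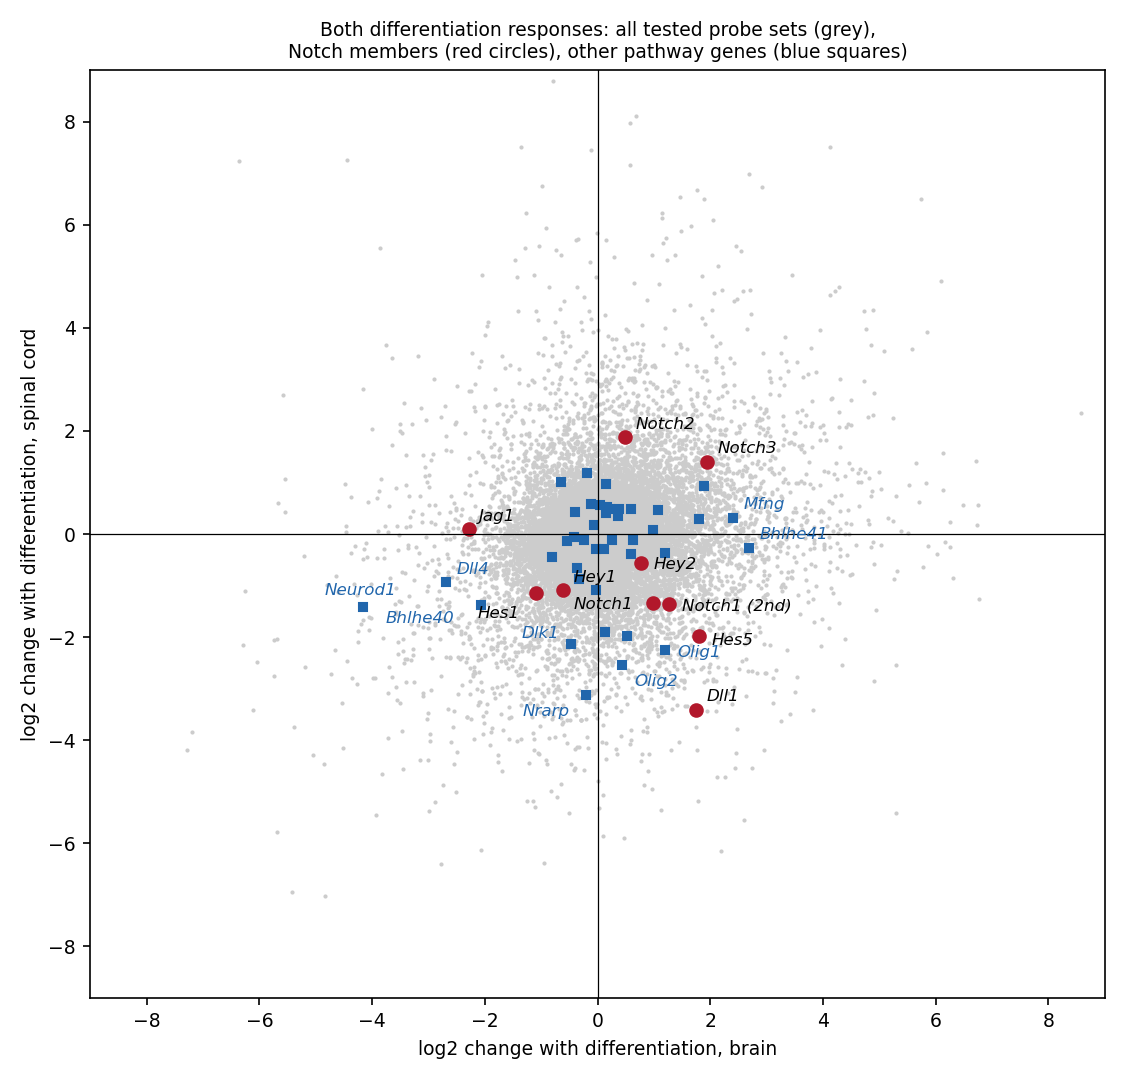
Log2 change with differentiation in brain (x axis) and in spinal cord (y axis) for all 20834 tested probe sets (grey), the 10 tested Notch probe sets (red circles) and 41 other pathway genes (blue squares, named where either change is at least 2). Notch1, Hes5, Hey2 and Dll1 lie in the lower right, and Hes1 and Hey1 in the lower left.

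The difference between the 2 responses, spinal cord minus brain, was itself tested. Of the 6 genes counted, it was called below 0 for 4 (Notch1, Dll1, Hey1 and Hey2) and above 0 for 1 (Jag1), against 21.7% and 18.8% of all tested probe sets. With median centring, 61.3% of all calls in this comparison were above 0, against 46.4% as deposited. The difference was -2.31 for Notch1 by 1371491_at (adjusted p = 5.5e-07) and -2.63 by 1390426_at (adjusted p = 2.6e-06). For Dll1 it was -5.16 (adjusted p = 0.0016), which became -3.88 without differentiated spinal cord replicate 3, -6.08 without replicate 1 of that group, and -3.34 with values raised to the lower bound. For Jag1 it was 2.38 (adjusted p = 5.6e-06) and for Hey2 -1.34 (adjusted p = 0.00047). For Hes5 it was -3.78 (adjusted p = 0.0033), and -0.63 (adjusted p = 0.026) with values raised to the bound. For Hey1 it was -0.47 (adjusted p = 0.040), a call lost under most alternatives. Notch2 (1.38, adjusted p = 0.12), Notch3 (-0.54, adjusted p = 0.74) and Hes1 did not pass.

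A further 65 genes of the pathway were listed, of which 50 were on the array under 1 symbol and 41 were tested. Brain differentiation raised 12 of the 41, lowered 6 and left 23 not called, with a median log2 change of 0.13, against 23.7% up and 23.1% down over all tested probe sets. Spinal cord differentiation raised 13, lowered 12 and left 16 not called, with a median of -0.12, against 18.3% and 22.0%. The difference between the responses was above 0 for 8 and below 0 for 16 of the 41, against 18.8% and 21.7%. The counts by role below are descriptions of small groups and have the same shares behind them.

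Of the other ligands and ligand-like proteins, 5 were tested, of which brain differentiation lowered 2 and spinal cord differentiation raised 1 and lowered 3. Dll4, a Delta ligand best known from blood vessels, averaged 5.69 ± 0.79 in differentiated brain against 8.37 ± 0.26 in proliferative brain, a log2 change of -2.68 (adjusted p = 1.5e-04). The differentiated brain mean was under the 40th percentiles of those arrays, 6.27 to 6.35, so the size of this fall rests partly on values under the lower bound. In spinal cord the Dll4 change of -0.93 did not pass. Dlk1, a Delta-like protein without the receptor-binding DSL domain, fell by 2.14 in spinal cord (adjusted p = 6.7e-04) and showed -0.47 in brain, which did not pass. Its relative Dlk2 differed between the responses by -2.03 (adjusted p = 0.020). Mfge8, a secreted milk-fat protein with EGF repeats, fell by 0.32 in brain and by 0.87 in spinal cord. Ccn3, a matrix protein reported to bind Notch1, rose by 1.01 in spinal cord (adjusted p = 0.023).

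Of 6 tested genes for the cleavage of the receptor, brain differentiation raised 4 and lowered 1, and spinal cord differentiation raised 3 and lowered 0. Psen2, a catalytic subunit of gamma-secretase, rose by 1.81 in brain (adjusted p = 2.1e-06) and showed 0.29 in spinal cord, and the responses differed by -1.52 (adjusted p = 2.4e-04). Its partner subunit Aph1a rose by 0.60 in brain and 0.48 in spinal cord, and Ncstn by 0.39 and 0.48. Psenen, the smallest subunit, rose by 0.63 in brain, with -0.12 in spinal cord. Adam17, a protease that sheds membrane proteins, fell by 0.40 in brain (adjusted p = 0.027) and rose by 0.43 in spinal cord (adjusted p = 0.022).

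In the nuclear complex, 10 genes were tested, of which brain differentiation raised 3 and spinal cord differentiation raised 5 and lowered 2. Rbpj, the DNA-binding protein itself, rose by 0.52 in spinal cord (adjusted p = 4.1e-04), with 0.17 in brain, which did not pass. The coactivator Maml2 rose by 1.20 in brain (adjusted p = 4.0e-06) and fell by 0.38 in spinal cord (adjusted p = 0.026), the same pair of directions as Notch1. Its relative Maml1 rose by 0.59 in spinal cord. The corepressor Tle4 rose by 0.59 in brain and fell by 0.39 in spinal cord, Tle1 rose by 1.18 in spinal cord, and Tle3 rose by 0.98 in brain. The deacetylase Hdac1 rose by 0.98 in spinal cord.

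Among 10 tested genes for ligand endocytosis and negative regulation, spinal cord differentiation raised 2 and lowered 4, and brain differentiation raised 1 and lowered 1. Nrarp, a Notch target that limits the pathway, averaged 4.75 ± 0.23 in differentiated spinal cord, where it was dim, against 7.87 ± 0.29 in proliferative spinal cord. That is at least 3.06-fold lower (adjusted p = 5.7e-07). In brain it averaged 8.07 ± 0.22 in differentiated and 8.28 ± 0.44 in proliferative cultures (adjusted p = 0.52), and the responses differed by -2.91 (adjusted p = 2.6e-05). Dtx4, a Deltex ubiquitin ligase, rose by 1.89 in brain and 0.94 in spinal cord. Its relative Dtx1 fell by 1.99 in spinal cord (adjusted p = 0.0028), as did Neurl1, a ligase for Delta, by 1.09.

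Of the other bHLH repressors, Hes6 rose by 1.08 in brain and 0.47 in spinal cord, and Bhlhe40 fell by 2.06 in brain and 1.37 in spinal cord. Bhlhe41 rose by 2.69 in brain (adjusted p = 4.9e-06), with -0.26 in spinal cord. The proneural and lineage factors listed gave 3 tested genes. Olig1, an oligodendrocyte lineage factor, rose by 1.19 in brain (adjusted p = 3.5e-06) and fell by 2.26 in spinal cord (adjusted p = 1.7e-08). Olig2 fell in spinal cord by at least 2.41-fold (adjusted p = 0.0040) into a dim group, with 0.43 in brain. Neurod1, a neuronal differentiation factor, fell at least 5.48-fold in brain (adjusted p = 3.0e-04), where the differentiated group was dim. Of the fringe and glycosylation genes 4 were tested, and each tissue's differentiation raised 1 and lowered 0.

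**Figure D4:**
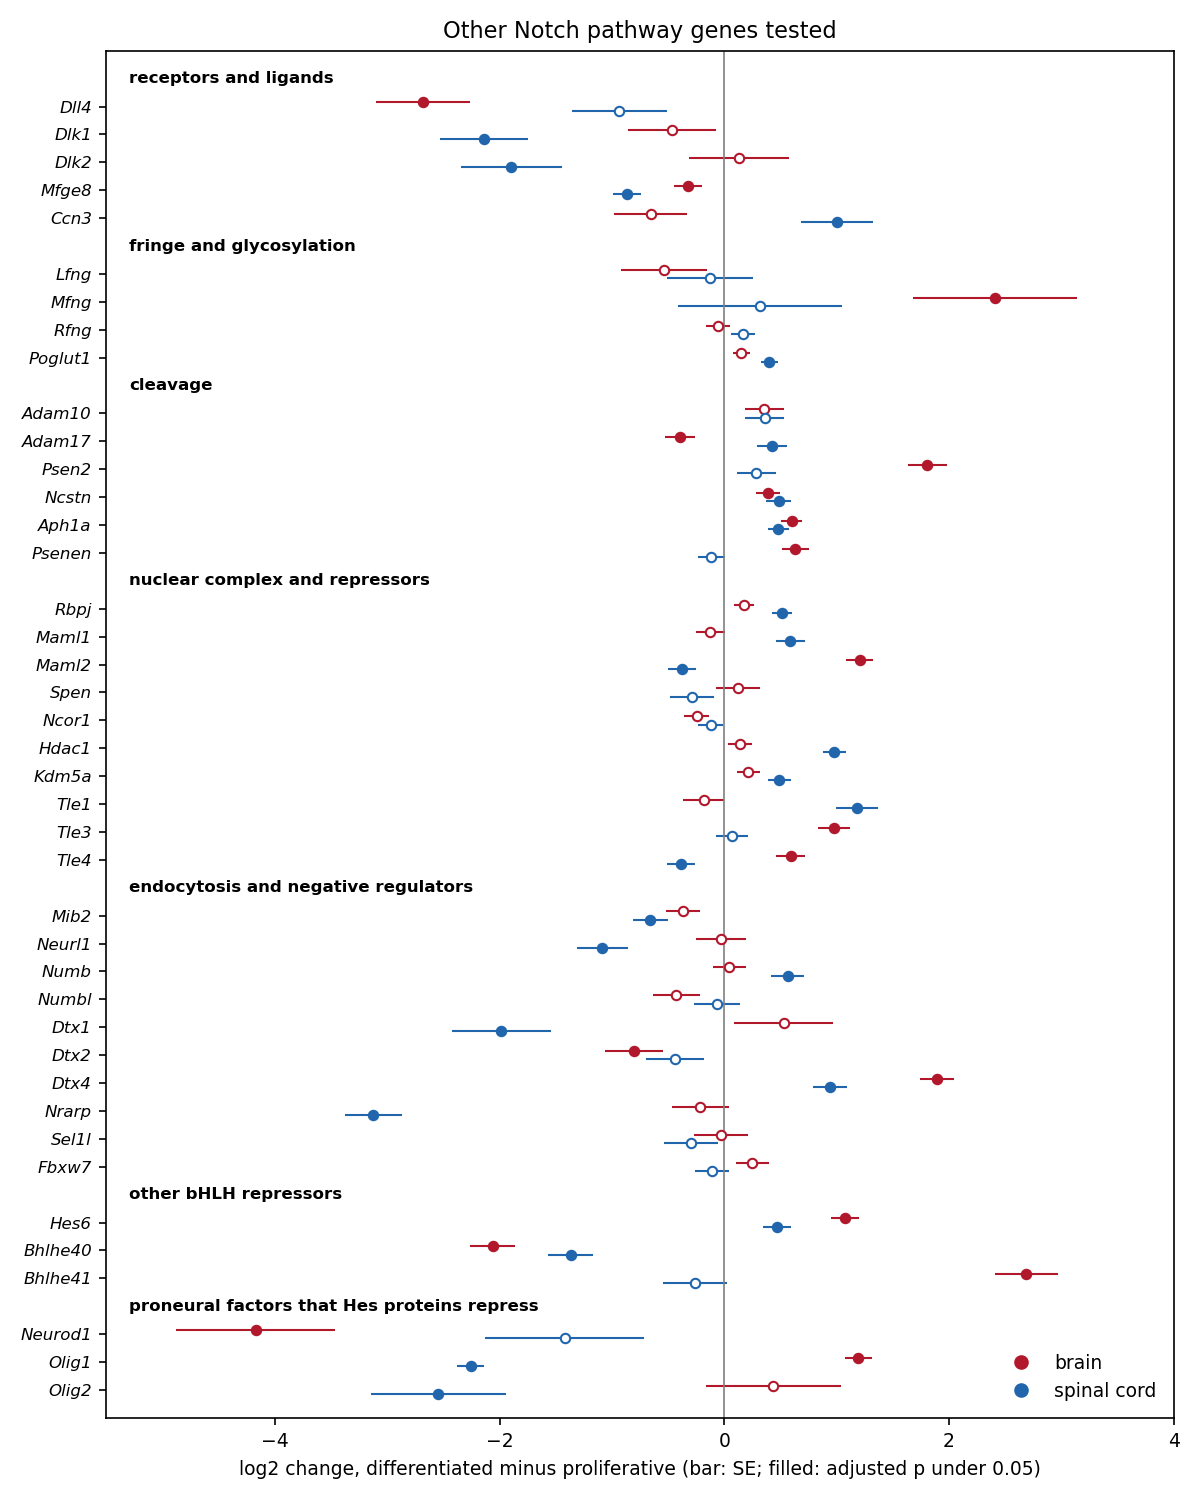
Log2 change with differentiation of the 41 other tested pathway genes in brain (red) and spinal cord (blue), with SE bars, grouped by role; filled points have an adjusted p under 0.05. Nrarp, Dlk1 and Dtx1 are filled only in spinal cord, left of 0, and Psen2 and Bhlhe41 only in brain, right of 0.

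Genes whose pattern over the 12 arrays was most like a member's were ranked by the root mean square difference of log2 values, each gene taken relative to its own mean, among 11209 genes. Only members whose 4 group means spanned at least 2 by the brighter probe set were compared. This left out Notch1, which spanned 1.90 by 1371491_at and 2.29 by 1390426_at. The nearest were Tgif1 (0.222) and Adss2 (0.242) to Jag1, and Celsr3 (0.239) and Nes (0.252) to Hey1. The nearest genes to Dll1, Dll3 and Hes5, whose arrays scatter more, were farther: Kcnn3 (0.781) to Dll1, Irag2 (0.841) to Dll3 and Lrrn2 (0.512) to Hes5. Dll3 and Hes5 were dim outside differentiated brain, so their matches rest largely on values under the lower bound.

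Markers of other cells moved with the same comparisons. None of the 6 neural stem cell markers tested was dim in any group. In brain, differentiation raised 3 (Sox2, Vim and Fabp7) and lowered 1 (Nes, which encodes nestin). In spinal cord it raised 1 (Vim) and lowered 3 (Nes, Sox2 and Pax6). Of 6 oligodendrocyte precursor markers, differentiation raised 5 and lowered 0 in brain, and raised 1 and lowered 5 in spinal cord. Their summed linear signal was 17959 to 18527 in differentiated brain against 6987 to 8243 in proliferative brain, and 15826 to 17828 in differentiated spinal cord against 24106 to 27789 in proliferative spinal cord. The sums of this list moved in the directions of Notch1 and Hey2, as did those of the neural stem cell, Schwann cell and microglia lists. The lists share genes: Sox10 is in the precursor and Schwann cell lists, S100b in the astrocyte and Schwann cell lists, and Pdgfra in the precursor and fibroblast lists. Of 5 markers of mature oligodendrocytes, 5 rose in brain, with a median log2 change of 4.15 and sums of 35652 to 44421 in differentiated against 2764 to 4942 in proliferative cultures, where Mog and Mobp were dim. In spinal cord 0 of them rose and 1 fell, with sums of 34286 to 40395 in differentiated against 34220 to 37082 in proliferative cultures. Of 4 Schwann cell markers, 2 rose and 1 fell in brain and 4 fell in spinal cord. Their sums were 21419 to 23372 in differentiated against 6424 to 7576 in proliferative brain, and 6486 to 7048 in differentiated against 10758 to 17027 in proliferative spinal cord. The part of these lists in the changes of Notch1 and Hey2 was not tested.

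Of 7 fibroblast and meningeal markers, differentiation raised 2 and lowered 2 in brain and raised 5 and lowered 0 in spinal cord. All 7 were higher in spinal cord than in brain in either state. Their summed signal was 108338 to 124695 in differentiated spinal cord, 36077 to 63549 in proliferative spinal cord, 7380 to 8002 in differentiated brain and 5081 to 8579 in proliferative brain. In brain the fibroblast marker Lum was dim in both states. Of 9 astrocyte markers, 8 rose and 0 fell in brain, and 5 rose and 3 fell in spinal cord, with sums of 105264 to 112269 in differentiated brain against 28827 to 37160 in proliferative brain, and 54762 to 64273 in differentiated spinal cord against 28886 to 46606 in proliferative spinal cord. Neuron markers fell for 5 of 8 in both tissues and rose for 1 in brain. Of 5 tested microglia and macrophage markers, 3 rose and 1 fell in brain, and 0 rose and 2 fell in spinal cord. Their sums over 6 markers were 625 to 689 in differentiated against 320 to 444 in proliferative brain, and 1362 to 1468 in differentiated against 1945 to 3137 in proliferative spinal cord. The endothelial list, relevant to Dll4, fell with differentiation for 1 of its 2 tested markers in brain (Flt1) and for both in spinal cord (Flt1 and Kdr). Its 7 markers summed to 200 to 250 in differentiated against 242 to 332 in proliferative brain, with 6 and 5 of them dim. In spinal cord they summed to 132 to 192 in differentiated against 256 to 414 in proliferative cultures, with 7 and 5 dim. The part of these cell types in the Notch changes was not tested.

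**Figure D5:**
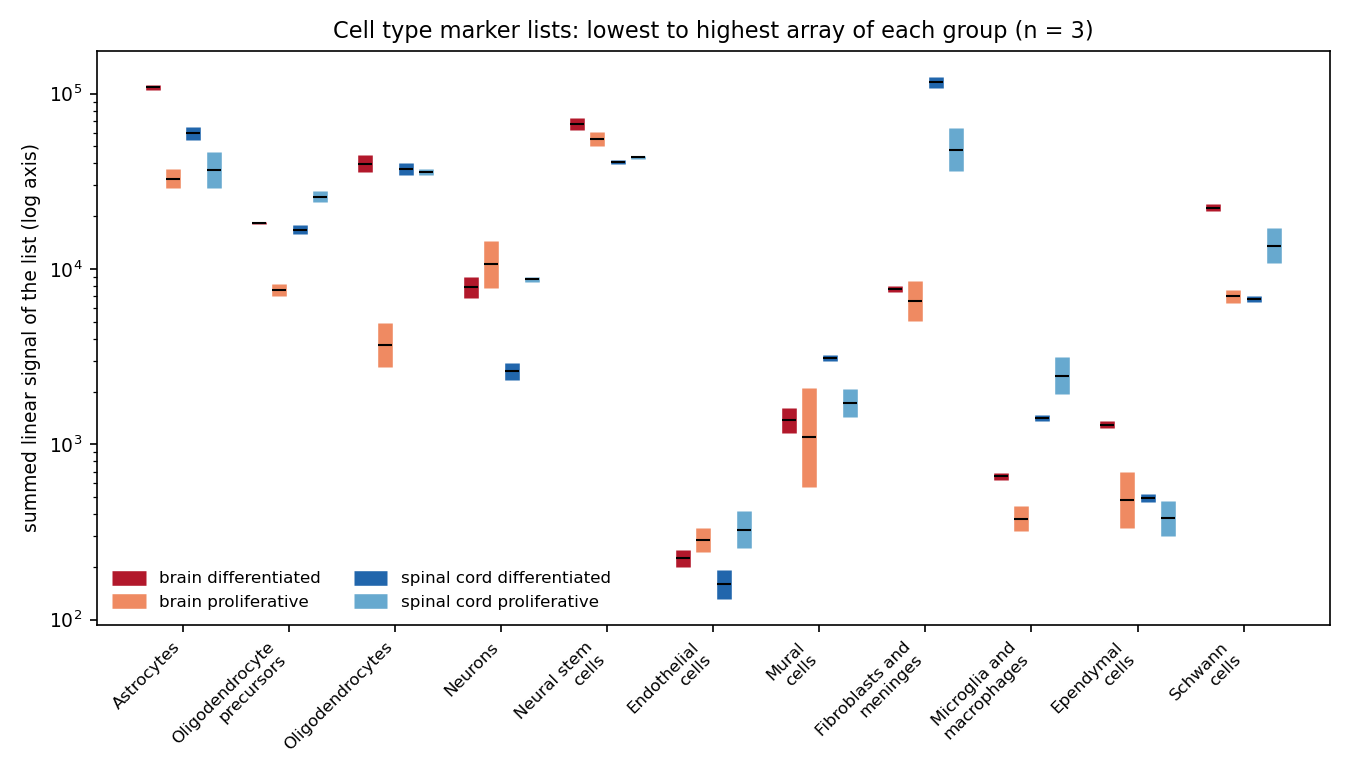
Summed linear signal of each cell type marker list, drawn from the lowest to the highest of the 3 arrays of each group on a log axis. Oligodendrocyte precursor markers are higher in differentiated than in proliferative brain (17959 to 18527 against 6987 to 8243) and lower in differentiated than in proliferative spinal cord, and fibroblast markers are highest in differentiated spinal cord.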

How the data were processed

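RNA of cultured NSCs was measured on 12 Affymetrix arrays. Per the labels' protocols, total RNA was extracted with TRIZOL and labelled by in vitro transcription. MAS5, which scales each array alone, and affy are named without versions in the submitters' processing notes. The deposited values are log2 signals: on the linear scale each array's 2%-trimmed mean was 500, so arrays were scaled and genes were not centred. Precision is limited by 3 arrays a group.

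Of 31099 probe sets, 57 controls were left out, and the 20834 that lay above an array's own 40th percentile on 3 or more arrays were tested. Log2 values were fitted with limma 3.58.1 (lmFit, eBayes with trend) in R 4.3.3, with 4 group means, 8 residual degrees of freedom and Benjamini-Hochberg adjustment. The script was tested on simulated data. Each gene was counted by its probe set with the highest mean. Alternatives were median centring, quantile normalization, a pseudocount of 64, a 60th-percentile filter and no filter, a mean over probe sets, a replicate block, no variance trend, only the groups compared, leaving out each array and a floor at the lower bound, the last added after seeing the data. Every probe set of the members is named, and pathway genes get a value if called in both differentiation comparisons or in the difference of responses. Members, gene lists, lower bound and rules were chosen with earlier results of these data known. Probe sets were named from the platform annotation. Same-numbered arrays correlated at -0.08 to 0.05 in their deviations from the group means, with 0 of 12 pairs over 0.1, so the numbers were not taken to pair arrays.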

Additional observations from a re-analysis of the deposited data

Results flagged for a closer look

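The responses of the 2 tissues to differentiation were compared for the 6 genes that did not enter the test through 1 group only. By the brighter probe set, spinal cord minus brain was called below 0 for 4 (Notch1, Dll1, Hey1 and Hey2) and above 0 for 1 (Jag1). The test was of the difference itself (limma, adjusted p in the report). Over all tested probe sets, 21.7% were called below 0 and 18.8% above 0 in this comparison. The difference, spinal cord minus brain on the log2 scale, was -2.31 and -2.63 for the 2 Notch1 probe sets, -5.16 for Dll1, 2.38 for Jag1, -3.78 for Hes5, -0.47 for Hey1 and -1.34 for Hey2. Both responses of Hey1 were falls, so its value says only that the fall was larger in spinal cord. That call (limma, adjusted p = 0.040) was lost under 14 of 21 alternatives. The Dll1 and Hes5 values rest partly on arrays under the lower bound. Hes5 entered the test through differentiated brain alone, so its value is a description and is not counted.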

How the results depend on the processing

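Each result on a Notch probe set had a value under 19 to 22 alternatives. Of 50 results, 33 were calls, and the shares of all tested probe sets called in each comparison are given above. Of the 33 calls, 26 held under every alternative that gave one, 7 were lost somewhere and 0 reversed. How often the calls of other probe sets held is not given here, so these counts show nothing particular to the Notch genes. These calls include both Notch1 probe sets, and those of Notch2 and Hes5, whose entry to the test built in a difference. Some comparisons share arrays, and as reported all use a spread estimated from all 4 groups, so the calls are not independent of each other. Counts of genes here include Notch2, Notch3 and Hes5. The cause of each change was not tested. Genes called up in brain, 3 as reported, numbered 5 with a pseudocount of 64, with only the groups compared and with the floor, and 2 to 4 when arrays were left out in turn. Those called up in spinal cord, 1 as reported, numbered 0 with the 60th-percentile filter and with a mean over probe sets, under which Notch2 did not pass the filter and had no value. Between proliferative cultures, the count higher in spinal cord, 1 as reported, was 0 with median centring, 2 with a pseudocount of 64 and with the floor, and 0 to 2 without single arrays. Between differentiated cultures the count of 1 became 2 with a pseudocount of 64, with only the groups compared and with the floor. For the difference of responses the count above 0 was 1 to 2 without single arrays. Counts of genes called down moved too when arrays were left out in turn. The count was 4 to 6 in spinal cord differentiation (6 as reported) and 2 to 3 between proliferative cultures (3 as reported). For the difference of responses the count below 0 was 4 to 5 (5 as reported). The down count stayed at 3 in brain differentiation and at 5 between differentiated cultures. Median centring moved the median change of all probe sets from 0.00 to -0.15 in brain, from -0.02 to -0.22 between proliferative cultures and from -0.04 to 0.19 for the difference of responses, and probe sets lower in proliferative spinal cord than in proliferative brain then numbered 6214, against 3844.

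With the replicate block, 5 genes were called up in brain differentiation against 3: Notch3 (adjusted p = 0.037) and Dll1 (0.0499) were added, and the Hey1 difference of responses was lost (0.053). The numbers show no pairing.

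Values that changed sign were all uncalled. Hes1 between proliferative cultures was -0.14 with median centring and -0.17 to 0.39 without single arrays. Hes1 between differentiated cultures was -0.15 to 0.19 without single arrays, and its difference of responses was 0.18 with median centring and -0.37 to 0.19 without single arrays. Notch3 between proliferative cultures was -0.011 with quantile normalization and -0.45 to 1.22 without single arrays, its spinal cord change was -0.10 with the floor, and its difference of responses was -1.51 to 0.16 without single arrays. Notch2 between proliferative cultures was 0.25 with the floor and -0.90 to 0.078 without single arrays. The Jag1 change in spinal cord was -0.00038 to 0.19 without single arrays.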
